A study of Mus musculus with 12 samples.

Results

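The genes described here are linked to cytotoxic lymphocytes and their granules. They encode the proteases granzyme B (Gzmb) and granzyme A (Gzma), the pore-forming protein perforin (Prf1) and the storage proteoglycan serglycin (Srgn). The others encode the granule membrane protein Nkg7 and cathepsin W (Ctsw). The 6 genes were taken as a fixed list out of 45321 genes with matched transcripts. All 6 were among the 14398 genes that passed the filter on low counts. RNA was sequenced from total CD4+ T cells of C57BL/6 mouse spleen, enriched untouched, that is by removing other cells rather than binding CD4. Cells were first given 1 µM cyclosporin A (CsA) or its ethanol vehicle for 1 h. They were then left without stimulus (US) or received phorbol 12-myristate 13-acetate (PMA, 10 nM) together with ionomycin (1 µM) for 2 h (PI). The 4 groups were ethanol_US, CsA_US, ethanol_PI and CsA_PI, with 3 libraries each, and all 12 libraries came from the same strain, organ and cell preparation. Since the labels name no animals, a p-value here speaks for the variation among the sequenced libraries only, and that variation may be technical. Neither the age of the mice nor the composition of the CD4+ population (naive, memory or regulatory cells) is given in the sources used here.

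Cytotoxic lymphocytes store perforin and granzymes in secretory lysosomes, bound to the glycosaminoglycan chains of serglycin. When a granule fuses with the membrane facing a target cell, perforin opens the target's membrane and granzymes enter and cleave proteins that lead to cell death. CD8+ T cells and natural killer (NK) cells are the classic carriers of this machinery, and a minority of CD4+ T cells also acquires it, while serglycin is made far more widely among blood cells. PMA switches on protein kinase C and ionomycin lets calcium into the cell. CsA stops the calcium-dependent phosphatase calcineurin and with it the nuclear entry of NFAT transcription factors, while kinase signals that PMA starts can still reach AP-1 factors.

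One library went against its label. The library labelled CsA_PI 2 had counts closer to ethanol_US 2 than any other 2 libraries had to each other, at a chi-square of 4.06 per degree of freedom over genes. The other 65 of the 66 pairs ranged from 13.55 to 378.5, and the library labelled CsA_PI 2 stood at 169.6 and 154.8 from CsA_PI 1 and CsA_PI 3. A value near 1 would be sampling noise alone. The 4.06 cannot tell 2 libraries made from the same cells from 2 separate samples, since library preparation also adds differences. Whether the pair shares a source was not tested, and both were kept as separate libraries. In this library Il2 and Tnf, cytokine genes that report stimulation, stood at 2.59 and 18.0 CPM (counts scaled to library size with TMM factors), against 25.4 and 256.7 CPM in CsA_PI 1 and 23.3 and 245 CPM in CsA_PI 3. Each fold change and count of calls below from a comparison of the CsA_PI group is therefore given with all 12 libraries and with the other 11. The 4 libraries numbered 2 also held more RNA of other cell types: summed TPM (abundance per transcript length, on the same total in each library) of 4 B cell markers were 181 to 972 there and 39.0 to 156.5 in libraries 1 and 3, and of 6 myeloid markers 304 to 572 against 33.7 to 54.2. Markers of CD4+ T cells (Cd3d, Cd3e, Cd3g, Cd4, Cd5, Thy1 and Cd28) were all detected in every library, at a summed 1243 to 1872 TPM. Libraries held 10523816 to 18468044 estimated counts, and a count of 0 would have allowed up to 0.162 to 0.285 CPM, counting error only.

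**Figure D1:**
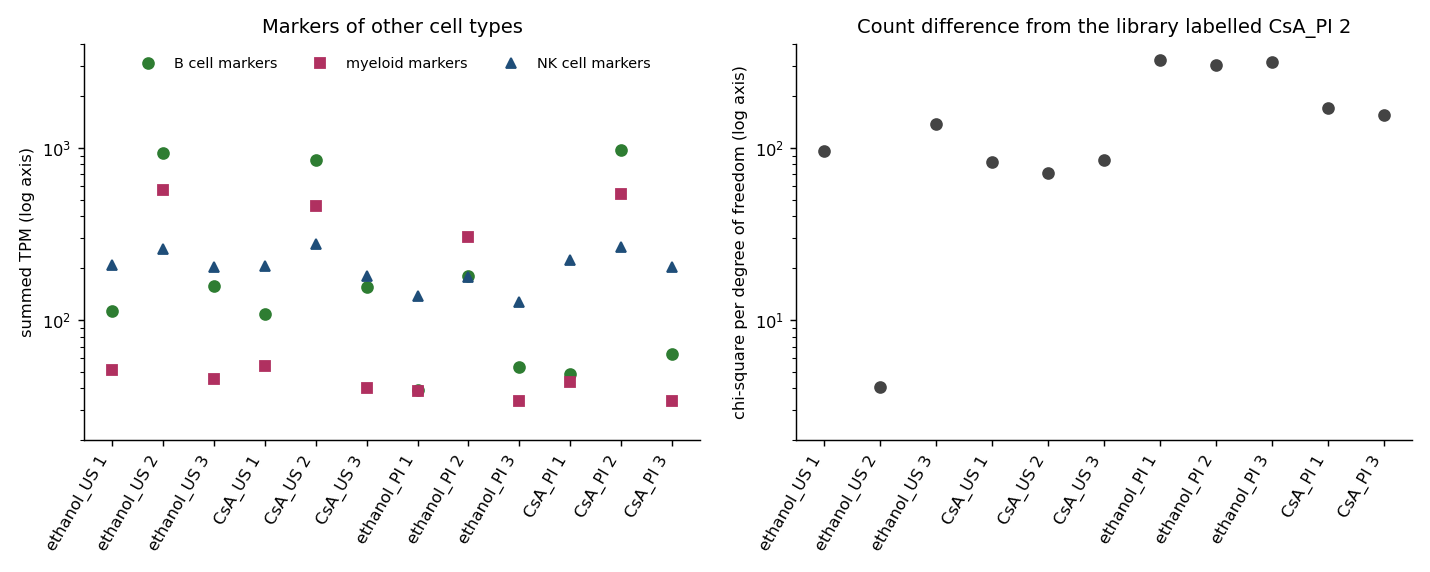
Left, summed TPM of B cell, myeloid and NK cell marker lists in each of the 12 libraries (log axis). Right, chi-square per degree of freedom between the library labelled CsA_PI 2 and each of the other 11 (log axis), with ethanol_US 2 at 4.06 far below the rest.

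On the mouse genome build mm10 (GRCm38, GENCODE M21 gene models) the 6 protein-coding genes lie on 5 chromosomes. Gzmb (ENSMUSG00000015437) spans chr14:56258838-56262260 on the minus strand and Gzma (ENSMUSG00000023132) chr13:113093825-113100981, also minus. Prf1 (ENSMUSG00000037202) spans chr10:61297833-61304680 on the plus strand, and Srgn (ENSMUSG00000020077) lies on the same chromosome at chr10:62493833-62527451 on the minus strand. Nkg7 (ENSMUSG00000004612) is the short gene at chr7:43437073-43438249 on the plus strand. Ctsw (ENSMUSG00000024910) at chr19:5465043-5468507 on the minus strand overlaps the end of Fibp, a gene on the opposite strand that ends at 5465051, but the only Ctsw transcript quantified, Ctsw-201, ends at 5465240, outside that overlap. Of the 31-base words of their transcripts, Gzmb shared 1.35% with Gzmc, its neighbour in the granzyme family, Prf1 shared 0.516% and Srgn 0.98% with other genes, and Gzma, Nkg7 and Ctsw shared none.

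Upstream DNA is shown for the genes with a RefSeq window because AP-1 and NFAT sites are the known end points of the pathways that PMA and calcium open. The sequences are the 250 bases before the RefSeq transcript start on GRCm38.p6, written 5′ to 3′ on the gene's own strand. Of the 6 genes, 5 had a window. Capitals mark matches on either strand to TGANTCA (AP-1), TGACGTCA (a cyclic AMP response element), GGAAA or its complement TTTCC (the NFAT core) and TGTGGT or its complement ACCACA (RUNX), and no match overlaps another. Among 32851 windows of the same length, 6.75% held the AP-1 letters, 1.55% the cyclic AMP element, 55.6% the NFAT core and 14% the RUNX letters, so only the first 2 are uncommon. Gzmb, Gzma and Prf1 are given whole, with Gzmb at chr14:56262335-56262584, Gzma at chr13:113100982-113101231 and Prf1 at chr10:61297586-61297835. The Prf1 window precedes the RefSeq start at 61297836, whereas Prf1-201, the only Prf1 transcript quantified, starts further downstream at 61299801. The Prf1 window is thus not the DNA directly before the start of the measured transcript. The Gzmb window precedes the RefSeq start at 56262334, whereas Gzmb-201, the only Gzmb transcript quantified, starts downstream of it at 56262260. The bases between these Gzmb starts lie outside the window and were not searched. Nkg7 is given at chr7:43436888-43437072, up to its first GENCODE start. Of Srgn, which has 2 RefSeq starts, only the 30 bases around each group of matches are printed, at chr10:62507952-62507981 and chr10:62507820-62507849, since annotated Srgn transcripts run across that window, these stretches included.
Gzmb: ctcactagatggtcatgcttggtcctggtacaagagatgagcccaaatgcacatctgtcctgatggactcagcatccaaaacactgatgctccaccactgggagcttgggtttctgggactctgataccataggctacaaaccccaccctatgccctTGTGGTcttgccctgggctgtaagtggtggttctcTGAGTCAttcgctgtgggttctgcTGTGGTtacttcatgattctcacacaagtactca
Gzma: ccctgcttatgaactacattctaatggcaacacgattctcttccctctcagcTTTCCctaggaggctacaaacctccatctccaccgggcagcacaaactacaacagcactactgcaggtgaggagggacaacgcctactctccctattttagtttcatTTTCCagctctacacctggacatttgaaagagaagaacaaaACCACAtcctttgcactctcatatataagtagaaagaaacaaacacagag
Prf1: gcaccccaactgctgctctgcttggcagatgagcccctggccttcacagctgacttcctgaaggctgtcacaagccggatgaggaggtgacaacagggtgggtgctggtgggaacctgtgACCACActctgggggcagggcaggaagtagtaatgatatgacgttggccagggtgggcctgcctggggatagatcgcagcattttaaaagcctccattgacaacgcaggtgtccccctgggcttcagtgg
Nkg7: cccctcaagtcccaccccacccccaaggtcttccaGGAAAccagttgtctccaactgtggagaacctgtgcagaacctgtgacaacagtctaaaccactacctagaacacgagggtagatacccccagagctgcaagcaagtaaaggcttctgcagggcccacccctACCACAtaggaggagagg
Srgn site 1: tttGGAAAaagaaaaaataataACCACAca
Srgn site 2: tctatttgttcaGGAAActgtgacgtgtgt
The Gzmb window held 1 AP-1 match, TGAGTCA, 58 bases before the RefSeq start, between 2 RUNX matches, and no NFAT core. Gzma held 2 NFAT cores and 1 RUNX match, Prf1 held 1 RUNX match alone, and Nkg7 held 1 NFAT core and 1 RUNX match. The Srgn stretches carry the 2 NFAT cores and the RUNX match upstream of the start that the main transcript uses, while the window of the other Srgn start held none of the 4 motifs. A match is a description of the letters in the window and says nothing about binding, and a window without a match says nothing about the factor.

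Granzyme B, the protease that cleaves caspases in target cells, was scarce at rest and became abundant with stimulation, with or without CsA. Its level in ethanol_US was 2.54, 8.61 and 3.9 CPM in libraries 1, 2 and 3, and in CsA_US 7.82, 10.5 and 8.02 CPM. Stimulated vehicle cells held 103, 148 and 111 CPM. In CsA_PI 1 and CsA_PI 3 it was 177 and 139 CPM, and in the library labelled CsA_PI 2 it was 7.71 CPM. All stimulated libraries other than that one lay far above all 6 unstimulated libraries, and against the ethanol_PI range CsA_PI 1 lay above it and CsA_PI 3 inside it. The library labelled CsA_PI 2 fell inside the unstimulated range.

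Perforin, which lets granzymes into the target, followed the same pattern at a lower amplitude. Prf1 stood at 11.2, 8.43 and 8.27 CPM in ethanol_US and at 11.9, 8.2 and 7.12 CPM in CsA_US. In ethanol_PI it was 59.5, 78.9 and 47.3 CPM. CsA_PI 1 and CsA_PI 3 had 44.4 and 59.5 CPM, against 10.7 CPM in the library labelled CsA_PI 2. The stimulated ranges with and without CsA overlapped when that library was set apart, and neither touched the unstimulated range.

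Granzyme A, a tryptase of the same granules, moved little by comparison. Its 3 ethanol_US libraries read 8.69, 19.3 and 13.8 CPM and the CsA_US libraries 12.01, 26.1 and 12.8 CPM. With PMA and ionomycin Gzma reached 23, 39.9 and 23.2 CPM in vehicle, and 24.3 and 21.7 CPM in CsA_PI 1 and CsA_PI 3, with 16.2 CPM in the library labelled CsA_PI 2. Within each group but CsA_PI the library numbered 2 was the highest, at 1.72, 2.11 and 1.73 times the mean of libraries 1 and 3 in ethanol_US, CsA_US and ethanol_PI, and the unstimulated and stimulated ranges overlapped. The libraries numbered 2 were also those with more B cell and myeloid RNA, and their 2 CD8 markers (Cd8a and Cd8b1) summed to 21.2 to 29.2 TPM, against 6.19 to 13.8 TPM in libraries 1 and 3. All 7 NK cell markers (Ncr1, Klrb1c, Klre1, Klrk1, Klrd1, Tyrobp and Fcer1g) were quantified, at a summed 178 to 277 TPM in libraries 2 and 127.5 to 224 TPM in libraries 1 and 3, and Cd8a had no count in ethanol_PI 3. The part of other cell types in the Gzma level was not tested.

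Serglycin, the proteoglycan core on which granzymes and perforin are packed, was the most abundant of the 6 in every library and stood much lower with CsA in stimulated cells. Unstimulated cells held 824, 906 and 742 CPM in ethanol_US and 684, 758 and 701.5 CPM in CsA_US. Stimulation in vehicle brought Srgn to 7266, 5814 and 6270 CPM. With CsA it reached 2065 and 1878 CPM in CsA_PI 1 and CsA_PI 3, and 834 CPM in the library labelled CsA_PI 2. The 3 levels formed separate steps without overlap, CsA_PI 1 and 3 lying between the unstimulated and the vehicle-stimulated libraries. Of the 6 Srgn transcripts quantified, the 938-base Srgn-201 took 88.6% to 91.7% of the gene's counts in each of the 12 libraries and the 1727-base Srgn-204, which starts upstream at 62527451, took 6.9% to 11.1%. Srgn-201 thus carried most of the change, and its start at 62507755 lies just downstream of the 2 stretches printed above.

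Nkg7, a membrane protein needed for efficient granule release, had a narrower range. It stood at 68.9, 33.3 and 66.7 CPM in ethanol_US and 64.8, 47.3 and 62.2 CPM in CsA_US. The ethanol_PI libraries held 98.1, 65.2 and 84.6 CPM, and the CsA_PI libraries 46.9 and 36.8 CPM in numbers 1 and 3 and 30.98 CPM in the one labelled CsA_PI 2. All CsA_PI libraries were below all ethanol_PI libraries, and CsA_PI 1 and CsA_PI 3 were below 5 of the 6 unstimulated libraries. In every group the library numbered 2 was the lowest for Nkg7, at 0.492 to 0.746 times the mean of the other two.

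Ctsw, a papain-like cysteine protease typical of CD8+ T and NK cells, was nearly flat on the CPM scale. Its levels were 95.4, 86.4 and 85.1 CPM in ethanol_US, 117, 102.9 and 92.9 CPM in CsA_US, and 112, 80.9 and 94.0 CPM in ethanol_PI. CsA_PI 1 and CsA_PI 3 had 122 and 93.4 CPM, and the library labelled CsA_PI 2 had 96.4 CPM. All 4 groups overlapped in CPM, whereas in TPM the ethanol_PI libraries (83.0 to 102.3 TPM) lay below all 6 unstimulated ones (123 to 166 TPM).

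**Figure D2:**
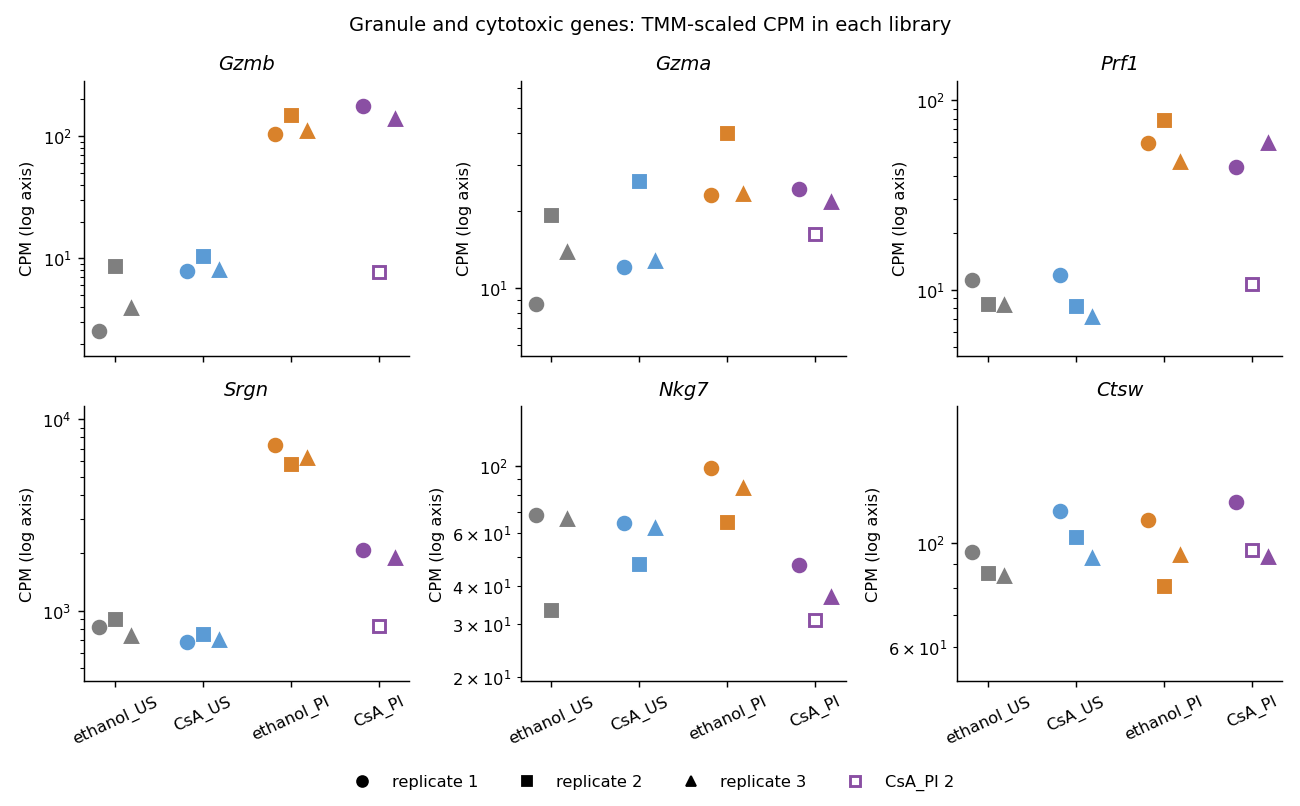
TMM-scaled CPM of each gene (log axes, 1 panel a gene) in the 12 libraries, with 1 marker shape for each replicate number and an open square for the library labelled CsA_PI 2. Gzmb, Prf1 and Srgn rise from US to PI, Srgn steps down from ethanol_PI to CsA_PI, and the open square sits with the unstimulated libraries for Gzmb, Prf1 and Srgn.

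TPM, which divides by transcript length, allowed the genes to be ranked against each other. In the 6 unstimulated libraries Srgn led with 1293 to 1719 TPM, Ctsw (123 to 166 TPM) and Nkg7 (72.4 to 158 TPM) overlapped behind it, Gzma followed with 19.9 to 51.2 TPM, and Gzmb (3.23 to 11.4 TPM) and Prf1 (5.58 to 9.36 TPM) overlapped at the bottom. In ethanol_PI Srgn reached 8006 to 8912 TPM. Gzmb moved up there to 80.0 to 128 TPM, into the range of Nkg7 (102 to 137 TPM) and Ctsw (83.0 to 102.3 TPM), while Prf1 (26.5 to 44.9 TPM) drew level with Gzma (32.1 to 62.4 TPM). In CsA_PI 1 and CsA_PI 3 Gzmb, at 137 to 151 TPM, stood above Ctsw (108.5 to 124 TPM) and Nkg7 (65.2 to 72.5 TPM), second to Srgn at 2798 to 2954 TPM. At rest Srgn, Ctsw and Nkg7 thus lay above both granzymes and perforin. After 2 h of stimulation Gzmb stood in the range of Nkg7 and Ctsw in vehicle and above both in CsA_PI 1 and CsA_PI 3, far below Srgn in each.

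Stimulation in vehicle raised Gzmb, Srgn, Prf1 and Gzma, 4 of the 6 genes, at an edgeR adjusted p under 0.05. Of all genes tested, 39.8% were called in either direction and 20.1% were called higher (43.7% and 20.8% without the library labelled CsA_PI 2), and the median log2 fold change of the 6 genes was 1.89 against −0.02 over all genes (1.83 against −0.08). Some markers of other cytotoxic or innate cells moved in the same comparison: both innate-like T cell markers, Zbtb16 (1.26 ± 0.37) and Sox13 (2.07 ± 0.65), were called higher, at a summed 5.04 to 10.2 TPM in ethanol_PI and 3.11 to 6.23 TPM in ethanol_US. Of the 7 NK cell markers 2, Klrb1c (−1.23 ± 0.30) and Klrd1 (−1.40 ± 0.29), were called lower and none higher, at a summed 127.5 to 178 TPM against 203 to 258 TPM. That count is near the 19.7% of all genes called lower (22.9% with 11 libraries). Neither of the 2 CD8 markers was called. The part of these cells in the members' changes was not tested. The bulk RNA cannot tell more expressing cells from more RNA per cell. Gzmb rose 24.1-fold, a log2 fold change of 4.59 ± 0.93 (SE; adjusted p = 0.00303), or 4.52 ± 0.40 (adjusted p = 4.35e-06) with 11 libraries. Srgn rose 7.83-fold at 2.97 ± 0.30 (adjusted p = 1.66e-05), or 2.91 ± 0.16 (adjusted p = 2.64e-08). Prf1 rose 6.64-fold at 2.73 ± 0.50 (adjusted p = 0.00123), or 2.68 ± 0.25 (adjusted p = 2.01e-06). These 3 rises were far larger than the spread between libraries and kept their call in each of the 12 fits that left out 1 library. Gzma, at 2.06-fold and 1.04 ± 0.37 (adjusted p = 0.0397; 0.98 ± 0.36 and 0.0406 with 11), did not: its call was lost without ethanol_US 1 (0.73), ethanol_US 3 (0.97), CsA_US 3 (0.98), ethanol_PI 1 (1.18), ethanol_PI 2 (0.72), ethanol_PI 3 (1.17) or CsA_PI 3 (1.04), and with library totals as the scale (0.46), without the filter (0.92) and with limma on log2(TPM + 1) and log2(TPM + 0.1) (0.47 and 0.49). Nkg7 was not called, at 0.55 ± 0.27 (adjusted p = 0.131; 0.50 ± 0.26 with 11), but was with the replicate number as a block (0.59 ± 0.18; adjusted p = 0.0187). Ctsw stood at 0.10 ± 0.17 (adjusted p = 0.669; 95% interval −0.27 to 0.47; 0.05 ± 0.16 with 11), and its sign turned with library totals, to −0.51 (adjusted p = 0.0217), where it was called lower, as it was by limma on log2(TPM + 1) and log2(TPM + 0.1) (−0.48 and −0.49; adjusted p = 0.0355 and 0.0334). With library totals the all-gene median went from −0.02 to −0.63, and relative to the median Ctsw was at 0.12 on both scales, Nkg7 at 0.57 and 0.56, and Gzma at 1.06 and 1.09.

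CsA in stimulated cells lowered the serglycin and Nkg7 transcripts and left the proteases and perforin without a call. Srgn and Nkg7, 2 of the 6, were called lower, against 12.7% of all genes called lower and 23% called in either direction (12.1% and 22.5% with 11 libraries). Of the 7 NK cell markers 2, Klrb1c (1.16 ± 0.30; 1.30 ± 0.32 with 11) and Klrd1 (2.64-fold; 2.65-fold with 11), were called higher, against 10.3% of all genes (10.4% with 11). Neither innate-like marker and neither CD8 marker was called. Srgn was 4.05-fold lower, at −2.02 ± 0.29 (adjusted p = 0.000364), or 3.18-fold lower at −1.67 ± 0.18 (adjusted p = 2.37e-05) with 11 libraries. Nkg7 was 2.16-fold lower, at −1.11 ± 0.28 (adjusted p = 0.0122), or −0.94 ± 0.30 (adjusted p = 0.0399). The Nkg7 call was lost without ethanol_PI 1 (−0.97; adjusted p = 0.0553), with library totals (−0.79; adjusted p = 0.05001) and with limma on log2(TPM + 1) (−0.82; adjusted p = 0.0515), and its value relative to the median of all genes was −1.17 with TMM and −1.19 with library totals.

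The interval for Gzmb depended on the doubtful library. With 12 libraries CsA changed Gzmb by −0.16 ± 0.79 (adjusted p = 0.914; 95% interval −1.91 to 1.58), and with 11 by 0.43 ± 0.37 (adjusted p = 0.474; 95% interval −0.39 to 1.24), so a fall of more than 0.39 lay outside the second interval. In the 8 libraries numbered 1 and 3 Gzmb was called higher with CsA, at 0.60 ± 0.20 (adjusted p = 0.0467). Prf1 was at −0.70 ± 0.47 (adjusted p = 0.324) with 12 libraries and −0.22 ± 0.26 (adjusted p = 0.626; 95% interval −0.79 to 0.35) with 11. Gzma stood at −0.47 ± 0.37 and −0.28 ± 0.40 (adjusted p = 0.408 and 0.685), and Ctsw at 0.12 ± 0.17 and 0.22 ± 0.18 (adjusted p = 0.669 and 0.448). The median of the 6 genes was −0.58 with 12 libraries and −0.25 with 11, against 0.06 and 0.05 over all genes.

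The rise under CsA itself, CsA_PI against CsA_US, was called for Gzmb, Prf1 and Srgn, 3 of the 6, where 5.28% of all genes were called and 3.9% were called higher (28.7% and 14.1% with 11 libraries). With 11 libraries Gzmb rose 17.8-fold at 4.15 ± 0.40 (adjusted p = 3.19e-05), Prf1 5.58-fold at 2.48 ± 0.27 (adjusted p = 2.48e-05) and Srgn 2.72-fold at 1.44 ± 0.16 (adjusted p = 3.49e-05). With 12 libraries the values were 3.62 ± 0.88, 2.07 ± 0.49 and 1.16 ± 0.28 (adjusted p = 0.0468, 0.0431 and 0.0431). With 12, all 3 calls were lost on leaving out any library other than the one labelled CsA_PI 2 or ethanol_US 2, at values of 3.06 to 3.72 for Gzmb, 1.59 to 2.31 for Prf1 and 0.92 to 1.16 for Srgn. Gzma (0.29 ± 0.37; 0.43 ± 0.39 with 11), Nkg7 (−0.60 ± 0.28; −0.50 ± 0.29) and Ctsw (−0.00 ± 0.17; 0.03 ± 0.18) were not called. In the 8 libraries numbered 1 and 3 Gzma (0.86 ± 0.26; adjusted p = 0.0269) and Nkg7 (−0.64 ± 0.18; adjusted p = 0.0171) were called as well.

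The test of whether CsA altered the response to stimulation, the interaction, was run in edgeR with 12 and with 11 libraries. Without the replicate block both fits called Srgn alone among the 6, against 9.72% of all genes in either direction and 6.19% lower (12.4% and 7.31% with 11). Its response was smaller with CsA by −1.81 ± 0.40 (adjusted p = 0.0136) with 12 libraries and by −1.47 ± 0.23 (adjusted p = 0.00101) with 11. For Nkg7 the difference was −1.16 ± 0.39 (adjusted p = 0.0832), with 11 libraries its 95% interval was −1.85 to −0.15 (adjusted p = 0.131), DESeq2 called it at −1.16 (adjusted p = 0.0387), and edgeR called it with the replicate number as a block, at −1.20 ± 0.25 (adjusted p = 0.0117; −1.25 ± 0.24 and 0.00332 with 11). Gzmb differed by −0.97 ± 1.15 (95% interval −3.52 to 1.58) with 12 libraries and −0.37 ± 0.52 (95% interval −1.53 to 0.78) with 11, neither called. Prf1 differed by −0.67 ± 0.67 (95% interval −2.12 to 0.79) and −0.20 ± 0.36 (95% interval −0.98 to 0.58), again without a call. With 11 libraries a response smaller by up to 1.53 for Gzmb and 0.98 for Prf1 lay inside these intervals, so an equal response is not shown. Gzma was at −0.75 ± 0.52 and −0.55 ± 0.53, and Ctsw at −0.11 ± 0.24 and −0.02 ± 0.24, its sign turning to 0.25 with library totals.

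CsA in unstimulated cells changed none of the 6 genes at an edgeR adjusted p under 0.05, where 0.00695% of all genes were called (0.0465% with 11 libraries). None had an unadjusted p under 0.05 either, with 12 or 11 libraries, and DESeq2 and limma called 0 of them. Gzmb had the largest value, 0.81 ± 0.84 (95% interval −1.06 to 2.67), or 0.80 ± 0.37 (95% interval −0.02 to 1.62; unadjusted p = 0.0537). The others ranged from −0.21 ± 0.28 for Srgn to 0.28 ± 0.37 for Gzma, against a median of −0.01 over all genes.

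**Figure D3:**
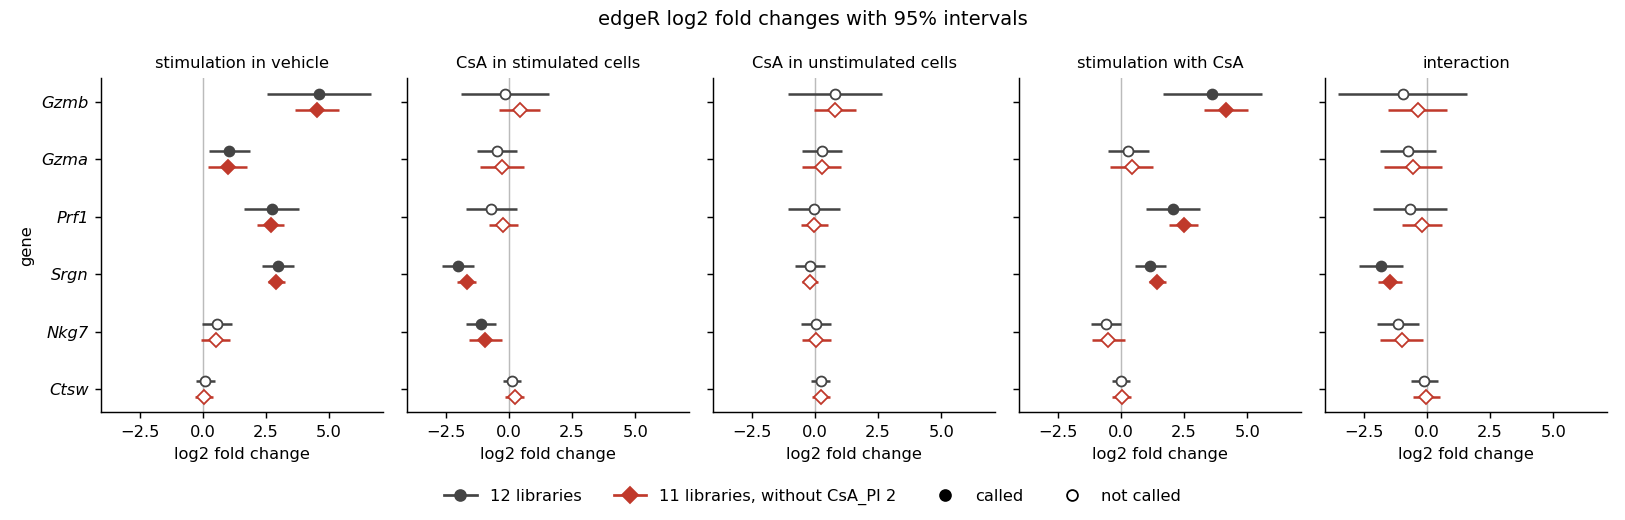
Log2 fold change (points) with 95% interval (lines) of the 6 genes in the 5 comparisons, from edgeR with 12 libraries (circles) and without the library labelled CsA_PI 2 (diamonds), filled where adjusted p was under 0.05. Gzmb, Prf1 and Srgn are filled for stimulation in vehicle and with CsA, and Srgn alone for the interaction.

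Counts in the gene lists that follow are read against the shares over all genes. Stimulation in vehicle called 20.1% of all genes higher and 19.7% lower (20.8% and 22.9% with 11 libraries), and CsA in stimulated cells called 10.3% higher and 12.7% lower (10.4% and 12.1%). Fold changes in vehicle, a comparison without CsA_PI libraries, are from the fit of 12 unless stated, and for those of CsA in stimulated cells the value with 11 libraries follows.

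Other granzymes differed in level. Of 8 listed, only Gzmc, Gzmk and Gzmm passed the filter. In ethanol_US Gzmc and Gzmm averaged 0.443 and 1.35 TPM. Gzmk averaged 16.35 TPM in ethanol_US and 16.68 TPM in CsA_US, where Gzmb averaged 6.15 and 10.1 TPM. In ethanol_PI Gzmk averaged 3.38 TPM and Gzmb 101 TPM. Gzmc, which shares a few words with Gzmb, rose in vehicle (3.48 ± 1.28; adjusted p = 0.0488). That fold change rests on only 0 to 7 counts a library in ethanol_US and 18 to 24 in ethanol_PI, so its size is uncertain. Gzmc stood at 2.15, 2.33 and 2.83 CPM in ethanol_PI and at 7.3 and 5.98 CPM in CsA_PI 1 and 3. Gzmk stood at −1.76 in vehicle without a call (adjusted p = 0.0526), and was called lower with 11 libraries at −1.83 (adjusted p = 0.00758). Neither was called for CsA in stimulated cells, at 0.86 and 1.46 (1.48 and 0.38 with 11).

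Inhibitors that protect the cell from its own granule proteases divided. Stimulation in vehicle called 4 of 6 higher and 1 lower (5 and 1 with 11 libraries), against 20.1% and 19.7% of all genes. Those that rose included Serpina3g (2.68 ± 0.31), the cathepsin inhibitor Cst7 (2.24 ± 0.37), Serpinb6b (1.86 ± 0.40) and Serpinb9b (2.83 ± 0.69). CsA then lowered Serpina3g (−1.91 ± 0.30, adjusted p = 0.000687; −1.83 ± 0.35 with 11) and Cst7 (−1.90 ± 0.37, adjusted p = 0.00279; −1.90 ± 0.42 with 11). Serpinb9, the inhibitor of granzyme B, was not called for CsA in stimulated cells with 12 libraries (0.65 ± 0.49; adjusted p = 0.391) and was called higher with 11 (1.15 ± 0.23; adjusted p = 0.00269). The Serpinb9 interaction was not called with 12 libraries (0.64; adjusted p = 0.632) and called with 11 (1.13; adjusted p = 0.0311). Serpinb9 levels were 199.6, 194.5 and 189 CPM in ethanol_PI and 432 and 408 CPM in CsA_PI 1 and 3, against 74.9 CPM in the library labelled CsA_PI 2.

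Of the machinery for granule movement and fusion, 3 of the 11 genes tested (12 listed) were called higher and 3 lower in vehicle with either 12 or 11 libraries, close to the shares over all genes. With CsA in stimulated cells 1 was called higher and 1 lower (2 and 1 with 11). Rab27a, the GTPase that docks granules, rose (1.88 ± 0.29) and was then lower with CsA (−2.38 ± 0.29, adjusted p = 0.000134; −2.72 ± 0.27 with 11), at 15.1 and 22.7 CPM in CsA_PI 1 and 3 against 113 to 144 CPM in ethanol_PI and 17.9 to 40.6 CPM in unstimulated libraries. Sytl2, which encodes a Rab27 effector, was higher with CsA (2.38 ± 0.70, adjusted p = 0.0316; 2.92 ± 0.41 with 11), at 79.8 and 110.8 CPM against 7.86 to 16.9 CPM in ethanol_PI and 10.7 CPM in the library labelled CsA_PI 2. In vehicle Sytl3 rose (2.53 ± 0.53) while Vamp8 (−1.67 ± 0.27) and Sytl1 (−1.70 ± 0.41) fell. Among 13 granule and lysosome proteins 5 were called higher and 3 lower in vehicle (4 and 4 with 11 libraries), against 20.1% and 19.7% of all genes. In stimulated cells CsA lowered 5 and raised 2 (5 and 1 with 11), against 12.7% and 10.3%. M6pr, the sorting receptor that brings mannose 6-phosphate bearing enzymes such as granzymes to lysosomes, rose by 2.73 ± 0.21 and was lower with CsA by −2.33 ± 0.20 (adjusted p = 1.32e-05; −2.13 ± 0.18 with 11). Ctsc, the protease that activates granzymes, moved likewise (1.27 ± 0.17, then −0.94 ± 0.16; −0.84 ± 0.17 with 11).

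Fasl, the ligand for killing through death receptors, rose by 2.14 ± 0.35 and was lower with CsA by −2.50 ± 0.36 (adjusted p = 0.000402; −2.31 ± 0.43 with 11), with an interaction of −2.30 ± 0.49 (adjusted p = 0.0118; −2.13 ± 0.54 with 11). Of the 10 transcription factors of the cytotoxic programme that were tested, 6 were called higher in vehicle and 0 lower (6 and 1 with 11 libraries), against 20.1% and 19.7% of all genes. CsA in stimulated cells called 4 lower and 1 higher (3 and 2 with 11), against 12.7% and 10.3%. Stimulation with CsA called 3 of the 10 higher and 0 lower (8 and 0 with 11), where 3.9% of all genes were called higher (14.1% with 11). Tbx21, whose product T-bet is known to act on Gzmb and Prf1 in CD8+ T cells, rose by 3.98 ± 0.31 and was lower with CsA by −3.30 ± 0.30 (adjusted p = 1.63e-05; 95% interval −3.53 to −2.47 with 11), falling to 66.8 and 68.9 CPM in CsA_PI 1 and 3 from 483 to 612 CPM in ethanol_PI. Prdm1 (1.97 ± 0.24, then −1.06 ± 0.24; −0.86 ± 0.23 with 11) and Irf4 (5.17 ± 0.78, then −2.17 ± 0.68; −1.64 ± 0.50 with 11) showed the same order of signs, and Hopx was called higher with CsA (1.07 ± 0.35; 1.22 ± 0.37 with 11). Eomes did not have the Tbx21 pattern in its levels. It stood at 10.4 to 20.7 CPM in ethanol_PI and at 29.2 to 42.0 CPM in CsA_PI 1 and 3, with 5.53 CPM in the library labelled CsA_PI 2.

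Of 12 genes for making chondroitin sulfate, the chain attached to serglycin, 3 were called higher and 3 lower in vehicle (3 and 4 with 11 libraries), close to the shares over all genes. With CsA in stimulated cells 2 were called higher and 2 lower with either set of libraries. Chpf (2.07 ± 0.24, then −1.37 ± 0.23 with CsA; −1.20 ± 0.24 with 11) and Chst11 (1.91 ± 0.34, then −1.92 ± 0.34; −2.06 ± 0.38 with 11) had the signs of Srgn, and Chst12 the opposite ones (−3.21 ± 0.63, then 2.27 ± 0.62; 0.91 ± 0.27 with 11). Among 11 effector and memory genes 3 were called higher in vehicle (4 with 11 libraries) and none lower, near the 20.1% of all genes called higher. CsA in stimulated cells called 1 of them lower and 0 higher with 12 libraries, and 1 lower and 4 higher with 11. The lower one was Cxcr3 (−1.19 ± 0.16, adjusted p = 0.000207; −1.14 ± 0.17 with 11), and the 4 higher ones with 11 were Klrg1 (1.49 ± 0.31), Ly6c2 (0.93 ± 0.22), Il2rb (0.93 ± 0.23) and Cd44 (0.80 ± 0.26), at 1.07, 0.58, 0.54 and 0.34 with 12. The median of this list was 0.26 with 12 libraries and 0.49 with 11, against 0.06 and 0.05 over all genes.

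**Figure D4:**
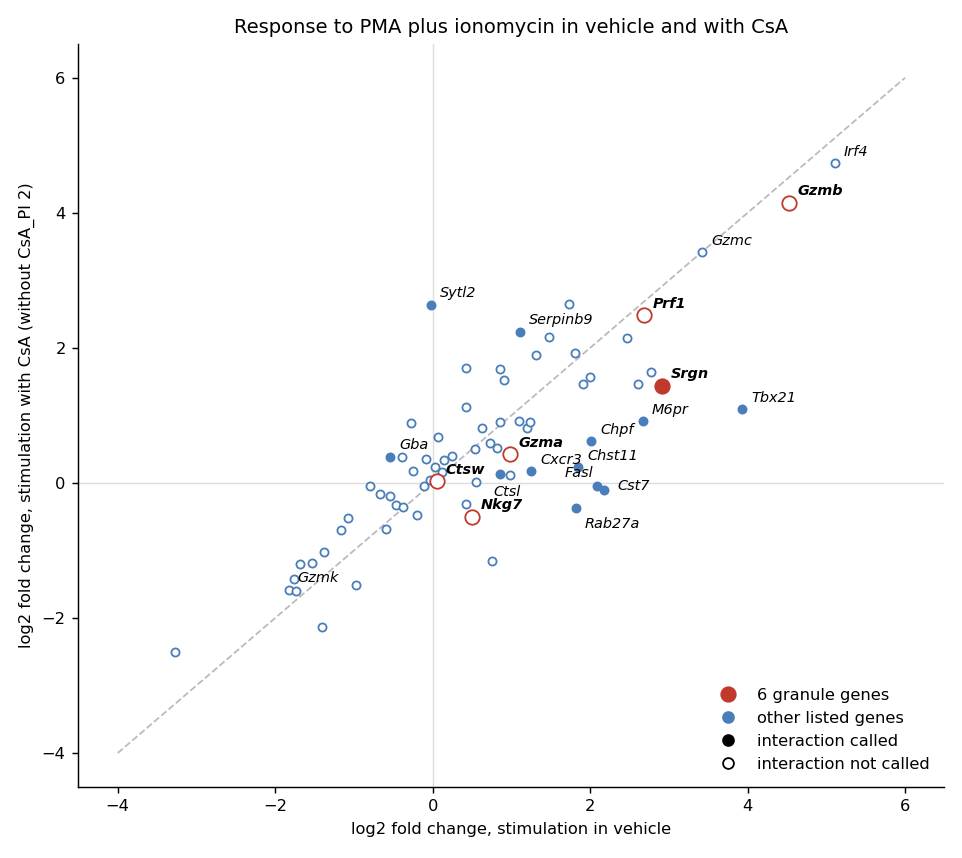
Log2 fold change of stimulation in vehicle (x axis) against that with CsA without the library labelled CsA_PI 2 (y axis), for the 6 granule genes and the genes of the other lists, filled where the interaction was called and with equality as a dashed line. Gzmb (4.52, 4.15) and Prf1 (2.68, 2.48) lie close to the line, Srgn (2.91, 1.44), Rab27a and Tbx21 below it, and Serpinb9 and Sytl2 above it.

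The profiles most like each member, by Pearson's r of log2 CPM over the 12 libraries among 8020 genes, are given as a description, since all genes share the same libraries and the stimulation contrast dominates. Nearest to Gzmb were Rbm3 (0.988), Nudt4 (0.987) and Fosl1 (0.985), and to Prf1 Insig1 (0.989), Ccnl1 (0.986) and Egr1 (0.986). Srgn was nearest to Ndufaf4 (0.998), Srm (0.997) and Gimap5 (0.997), Gzma to Mreg (0.912), Bcar3 (0.908) and Capg (0.903), and Nkg7 to Serf2 (0.950), Rbm22 (0.936) and Cdkn1c (0.935). Ctsw had the lowest values, 0.862 with Abi3, 0.818 with Igkv8-27 and 0.808 with Ubl5. No member was among the 3 nearest genes of another. Over 11 libraries the first neighbour was the same gene for Gzmb, Gzma, Prf1 and Srgn, and it was Rbm22 (0.948) for Nkg7 and Igkv8-27 (0.878) for Ctsw.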

How the data were processed

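Per the submitters' processing notes, reads were processed with cutadapt and kallisto and the build mm10; versions are not given in the sources used here, nor is the transcript annotation. The deposited table of each library holds an estimated count per transcript, unscaled for depth, as the authors' kallisto run gave it. Per the file headers it also holds TPM, which is scaled by length and depth within a library, and transcript lengths and effective lengths in bases. Of 109617 transcripts, 108214 were matched by identifier to GENCODE M21, and the 1403 unmatched ones, with 0.494% to 0.628% of a library's counts, were left out.

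Gene values are sums of estimated counts or TPM over transcripts, with counts rounded to whole numbers. Tests used edgeR 4.0.16 in R 4.3.3 with TMM scaling, filterByExpr with the groups (at least 10 counts, 15 in all), robust quasi-likelihood fits of all 4 groups together and Benjamini-Hochberg adjustment over all genes tested, called under 0.05. The SE was taken as the size of a log2 fold change over √F of its test, and 95% intervals use the fit's degrees of freedom. The common coefficient of variation was 0.349 with 12 libraries and 0.301 with 11. The procedure was tested on simulated data. The members and all other lists were chosen with earlier results of these data known.

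The text names all members, up to 4 called genes per other list and comparison with the lowest adjusted p in the fit of 12 or of 11 libraries, the 3 genes most correlated with each member (mean of at least 10 CPM, prior count 2), and Il2 and Tnf as a check. Eomes is named in addition, for its levels. Replicate numbers were examined as pairs by correlating deviations from the group means, first with 12 libraries. Same-numbered libraries gave 0.143 to 0.319 for ethanol_US with ethanol_PI, 0.196 to 0.325 for the 2 US groups and 0.107 to 0.208 for the 2 PI groups, all over 0.1, but 0.033 to 0.123 for CsA_US with CsA_PI. With 11 libraries the 2 PI groups gave 0.121 for number 1 and 0.044 for number 3, so not all were over 0.1. CsA_US with CsA_PI then gave 0.005 and 0.086. The labels do not say what a number shares, so the block was an alternative. Further settings tried were library totals or RLE in place of TMM, no filter, DESeq2 1.42.0, limma 3.58.1 on log2(TPM + 1) and log2(TPM + 0.1), only the groups compared, and leaving out each library. Chosen after seeing the data were the same block, scalings and DESeq2 with 11 libraries, the 8 libraries numbered 1 and 3, and 10 libraries without CsA_PI 2 and ethanol_US 2. PCR reads without molecular identifiers are not independent molecules, so floors cover counting error only.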

Additional observations from a re-analysis of the deposited data

Results flagged for a closer look

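The effect of stimulation on Srgn differed between CsA-treated and vehicle-treated cells by a test of the difference itself, the edgeR interaction. The response was smaller with CsA by −1.81 log2 units with 12 libraries (adjusted p = 0.0136) and by −1.47 with 11 (adjusted p = 0.00101). Its lowest and highest values on leaving out each library in turn were −2.04 and −1.47, and all 12 were called. In every one of the 3 ethanol_PI libraries Srgn was higher than in every CsA_PI library.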

How the results depend on the processing

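Stimulation in vehicle called 3 to 4 of the 6 genes, CsA in unstimulated cells 0 and the interaction 1 on leaving out each library. CsA in stimulated cells called 1 to 2 in those fits, and 1 with library totals, with limma on either TPM scale, and with library totals on 11 libraries, Nkg7 losing its call each time. Stimulation with CsA called 0 to 3 on leaving out a library, 1 without the filter, and 0 with library totals, either limma scale, only its own groups or the replicate block. It called 5 with the block on 11 libraries and in the 8 libraries numbered 1 and 3. The interaction called 2, Srgn and Nkg7, with DESeq2, the replicate block (12 or 11 libraries) and the 8 libraries. The cause of these changes was not tested. Counts of all genes moved over 1.5 times mainly for stimulation with CsA: 760 as reported, 5 with library totals, 0 with only its own groups, 1999 with DESeq2 and 4321 without CsA_PI 2.

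With 12 libraries replicate numbers paired the libraries between vehicle groups, between unstimulated groups and between stimulated groups, the last less clearly with 11. In these comparisons the block changed 1 call of a member, Nkg7 in vehicle (0.59). Elsewhere it took stimulation with CsA to adjusted p of 0.0625, 0.0548 and 0.0529 for Gzmb, Prf1 and Srgn (3.63, 2.01, 1.11), and called Nkg7 in the interaction (−1.20; −1.25 with 11).

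Signs turned only for values without a call as reported. Stimulation in vehicle: Nkg7 was −0.07 with library totals (12 or 11), and Ctsw −0.51 with library totals (12 or 11), −0.02 without the filter, −0.48 and −0.49 with limma, and −0.03 to 0.20 on leaving out a library. CsA in stimulated cells: Gzmb was 0.05 with library totals, −0.71 to 0.43 on leaving out a library, and with 11 libraries 0.68 (block), 0.59 (totals) and 0.40 (RLE, DESeq2), 0.60 with 8 and 0.43 with 10. Gzma was 0.07 (block, 11) and 0.04 (8 libraries), and Ctsw −0.01 to 0.25 on leaving out a library. CsA in unstimulated cells: on leaving out a library Gzma was −0.16 to 0.59, Prf1 −0.28 to 0.12 and Nkg7 −0.22 to 0.22; with 8 libraries Prf1 was 0.01 and Nkg7 −0.06, and with 10 Nkg7 −0.20. Stimulation with CsA: Ctsw was −0.14 to 0.09 on leaving out a library, 0.04 with RLE or DESeq2 on 11, 0.00 with 8 and 0.03 with 10. Interaction: Ctsw was 0.25 with library totals (0.19 with 11), 0.28 with limma on both scales and −0.24 to 0.02 on leaving out a library, and Prf1 0.02 with library totals on 11. Library totals shifted the median of all genes to −0.63 for stimulation in vehicle (1580 higher, 5437 lower, against 2892 and 2836) and to 0.40 for CsA in stimulated cells (2870 and 1193, against 1485 and 1833). An interaction needs all groups, so only the groups compared gave no value for it. Gzmb at rest rests on 45 to 170 counts a library, which limits its fold change.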
